A study of Rattus norvegicus with 23 samples.

Results

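Expression of 10 genes of the integrated stress response was examined in gastrocnemius muscle of 23 Wistar rats, sequenced as 1 polyA RNA library per rat. The genes were the transcription factor genes Atf4, Atf5 and Ddit3, the stress effectors Trib3, Sesn2 and Chac1, and the amino acid genes Asns, Psat1, Phgdh and Slc3a2. They were chosen by symbol among the 18903 named genes of the count table, and all 10 passed the filter on low counts that left 13365 genes to test. The samples were 6 Male HFHS, 6 Male Chow, 6 Female HFHS and 5 Female Chow rats. The diets began at 4 weeks of age and lasted 14 weeks, at a housing temperature of 30 °C and with a fast of 2 hours before tissue was collected. HFHS is a high fat, high sucrose diet with 39% of its energy as fat and 45% of its weight as sucrose, and chow had 17% and 5%. Female rats of the study were ovariectomized at 12 weeks and drank water with 0.5 µM estradiol, apart from some that were sham operated, which the labels do not identify. A difference between males and females therefore also holds the surgery and the hormone given, which cannot be told apart from sex. The labels give no batch, litter or day, so the spread measured here is that between rats.

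The integrated stress response begins when kinases that sense a lack of amino acids, unfolded proteins, heme loss or viral RNA phosphorylate the initiation factor eIF2. Most translation then slows, while the mRNA of the transcription factor ATF4 is translated more. ATF4 switches on genes for amino acid synthesis and uptake, and the factor CHOP, which Ddit3 encodes. In muscle the response is known from mitochondrial disease and from amino acid shortage. Because ATF4 is controlled to a large extent at translation, the counts of its mRNA do not measure the protein. Only RNA was analysed here.

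ATF4 with a C/EBP partner binds a composite element in many of its target genes, which is written here as TGATGNAA. The windows of RefSeq (build GRCr8), from 250 bases before to 50 bases after each start, were matched for all 10 genes, with 11 windows because Slc3a2 has more than 1 start. They were searched on both strands. The element was found for 2 of the 10 genes, Chac1 and Trib3, and in 3.98% of all 33469 windows. The cyclic AMP response element TGACGTCA was found for 0 of them and in 1.83% of all windows. The stretches with a match are shown 5′ to 3′ along the gene, with the match in capitals. It reads as the element on the opposite strand in both.
Chac1: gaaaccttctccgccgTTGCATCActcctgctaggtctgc
Trib3: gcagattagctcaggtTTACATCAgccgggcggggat
The Chac1 stretch lies at chr3:126795948-126795987 on the + strand and its match 167 to 160 bases before the start. The Trib3 stretch lies at chr3:161275534-161275570 on the - strand, with the match 21 to 14 bases before the start. A match is a description of these letters and does not show that a factor is bound in these muscles.

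Total counts per rat lay between 21152221 and 51305283 and their ranges overlapped in all 4 groups. The diet of 3 females is given in opposite ways by their labels. The column codes put rat 205 on chow and rats 224 and 225 on HFHS, whereas the titles say the reverse. Groups follow the codes, and every diet difference in females was also computed with the titles and without these rats. Diets of the males are those deposited. Over the 11270 genes of at least 1 CPM, rats 205 (SD of its log2 deviations from the group mean 0.397), 111 (0.350) and 202 (0.328) stood farthest from their groups, against 0.20 to 0.303 in the others. Levels are given in CPM, counts relative to the normalised library size, and differences as fitted log2 values, with adjusted p by Benjamini and Hochberg over 13365 genes from the quasi-likelihood test of edgeR. The threshold was 0.05. The 8 tested skeletal muscle markers, such as Acta1 and Ckm, summed to between 190386 and 298154 CPM.

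Hepatocyte and endothelial markers differed by sex, as did Chac1 and Slc3a2 below, and are given here for that reason. Of the adipocyte (6 tested), leukocyte and macrophage (7) and fibroblast (6) markers, 0 passed by sex. All 20 of 20 hepatocyte markers were lower in males. Their sums were 36.2 to 58.2 CPM in Male HFHS, 37.8 to 79.0 CPM in Male Chow, 41.9 to 485 CPM in Female HFHS and 287 to 551 CPM in Female Chow rats. The albumin gene Alb had a median of 0.443 CPM in Male HFHS, 3.49 CPM in Male Chow, 87.8 CPM in Female HFHS and 289 CPM in Female Chow rats. None of these markers was at 0 in every rat of a group, but 13 of the 20 were at 0 counts in at least 1 Male HFHS rat. Endothelial markers were higher in males for 5 of 5 tested. They summed to 276 to 330 CPM in Male HFHS, 244 to 306 CPM in Male Chow, 192 to 254 CPM in Female HFHS and 211 to 264 CPM in Female Chow rats. In whole muscle, fewer endothelial cells and less RNA per cell cannot be told apart. The study also collected liver at sacrifice, and where the RNA of the hepatocyte markers came from was not tested.

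By sex, 2 of the 10 genes differed, Chac1 and Slc3a2, and both were lower in males. Chac1 was at 0.414 times the female level and Slc3a2 at 0.867 times. Across all genes, 8.97% passed the threshold by sex and 5.17% were lower in males. DESeq2 and limma-voom also called 2 of the 10 genes. The median log2 difference of the 10 genes was 0.01, against 0.00 for all genes tested, with 5 above and 5 below 0. By diet, edgeR called 0 of the 10 genes in females, where 0.0150% of all genes passed, and 0 in males, where 0.0224% passed. At an unadjusted p under 0.05 the count was also 0 in both sexes. At that level 6.96% of all genes passed in females and 7.91% in males. DESeq2 and limma-voom called 0 of the 10.

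**Figure D1:**
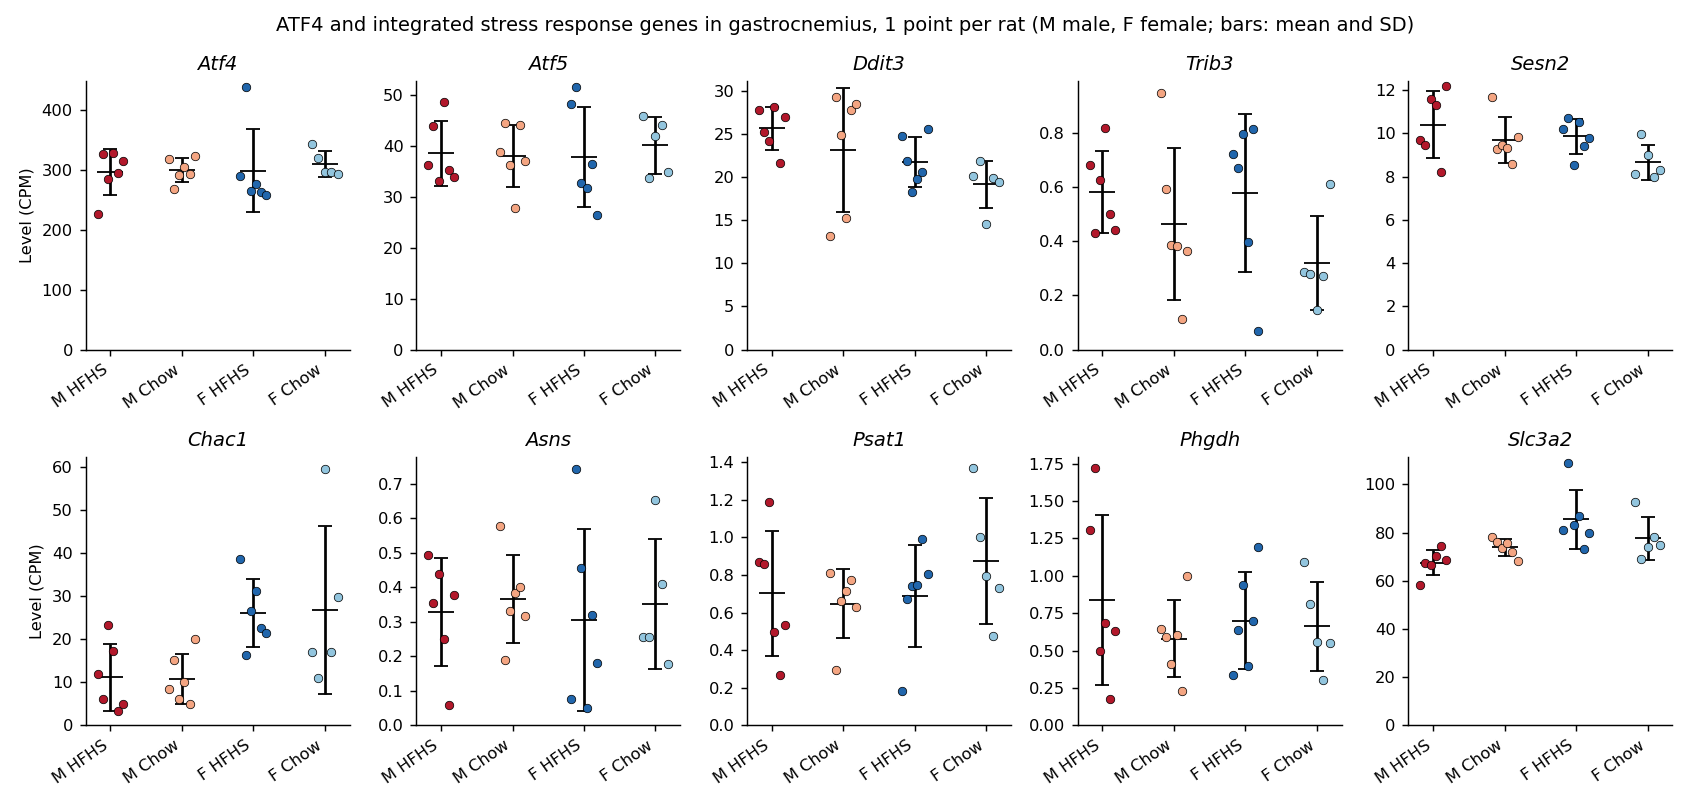
Levels of the 10 genes in CPM (vertical axis, from 0) in Male HFHS, Male Chow, Female HFHS and Female Chow rats, with 1 point per rat and the mean and SD as bars. The groups overlap for every gene, and for Chac1 the sexes differ most, with 7 of 12 males below the lowest female.

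Among the transcription factors, Atf4 (rn6 chromosome 7, 121480723 to 121482772, + strand) is the central regulator of the response. It was at 226, 305 and 327 CPM (lowest, median, highest) in Male HFHS, 267, 299 and 322 CPM in Male Chow and 257, 271 and 437 CPM in Female HFHS rats. The 5 Female Chow rats had 292, 296, 296, 319 and 343 CPM. The groups overlapped, and rat 202 of the Female HFHS group, at 437 CPM, was above all other rats. Group means were 295 ± 38.2 CPM in Male HFHS, 299 ± 20.5 CPM in Male Chow, 298 ± 69.1 CPM in Female HFHS (SD, n = 6 each) and 309 ± 21.7 CPM in Female Chow rats (SD, n = 5). These means differed by less than their SDs. The sex difference was -0.03 on the log2 scale (95% interval -0.19 to 0.13, adjusted p = 0.855 from edgeR). The diet difference was -0.05 in females (-0.29 to 0.18, adjusted p = 0.957) and -0.02 in males (-0.24 to 0.20, adjusted p = 0.982). The value in females depended on single rats and on the labels. Without rat 202 it was -0.19 (adjusted p = 0.808 from edgeR, unadjusted p under 0.05), with the diets of the titles 0.17 (adjusted p = 0.509) and without the 3 females of conflicting labels 0.072 (adjusted p = 0.875).

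Atf5 (rn6 chromosome 1, 100808241 to 100810522, - strand) encodes a related factor known to respond to mitochondrial protein stress. It lay between 27.7 and 48.6 CPM in males and between 26.4 and 51.4 CPM in females. Its means were 38.5 ± 6.33 CPM in Male HFHS, 38.0 ± 6.14 CPM in Male Chow, 37.8 ± 9.89 CPM in Female HFHS (SD, n = 6 each) and 40.0 ± 5.53 CPM in Female Chow rats (SD, n = 5). No 2 of these means differed by more than the SD of either group. By sex the log2 difference was -0.02 (interval -0.25 to 0.20, adjusted p = 0.921 from edgeR).

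Ddit3 (rn6 chromosome 7, 70580198 to 70585084, + strand) encodes CHOP, which favours cell death when stress lasts. It was at 21.6, 26.1 and 28.1 CPM in Male HFHS, 13.1, 26.4 and 29.3 CPM in Male Chow and 18.2, 21.2 and 25.6 CPM in Female HFHS rats (lowest, median, highest). Female Chow rats had 14.5, 19.4, 19.9, 20.1 and 21.8 CPM. Of the 12 males, 6 were above the highest female, while in Male Chow rat 111 was below the lowest female, at 13.1 CPM, and rat 115 was next, at 15.2 CPM. The difference by sex was 0.26 on the log2 scale (interval 0.02 to 0.50) and missed the threshold (adjusted p = 0.180 from edgeR, unadjusted p under 0.05). Without rat 111 it was 0.32 with an adjusted p of 0.0361. Without the 3 libraries farthest from their groups it was 0.33 with an adjusted p of 0.0619. Ddit3 had r = -0.66 with the hepatocyte marker level in males and -0.16 in females. With that level as a covariate the sex difference was 0.14 (adjusted p = 0.881 from edgeR). By diet it was 0.19 in females (interval -0.16 to 0.54) and 0.15 in males (interval -0.18 to 0.48), with adjusted p of 0.852 and 0.857. With the diets of the titles the difference in females was 0.043, and without rat 111 that in males was 0.035. Ddit3 overlaps Mars, the methionyl-tRNA synthetase gene, on the opposite strand. The strand setting of the counting is not given in the sources used here, so reads of the overlap cannot be assigned. Mars averaged 71.9 CPM and its log2 difference by sex was -0.06 (adjusted p = 0.340), and the 2 genes correlated at r = -0.19 across the 23 rats.

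Chac1 (rn6 chromosome 3, 111160205 to 111163425, + strand) encodes an enzyme that breaks down glutathione and is a target of ATF4 and CHOP. It was at 3.38, 9.02 and 23.2 CPM in Male HFHS and 4.92, 9.26 and 20.0 CPM in Male Chow rats (lowest, median, highest). Female HFHS rats had 16.4, 24.6 and 38.7 CPM, and the Female Chow rats 10.9, 17, 17.1, 29.8 and 59.6 CPM. Of the 12 males, 7 were below the lowest female, and 5 of the 11 females were above the highest male. Means were 11.2 ± 7.89 CPM in Male HFHS, 10.8 ± 5.78 CPM in Male Chow, 26.1 ± 7.90 CPM in Female HFHS (SD, n = 6 each) and 26.9 ± 19.5 CPM in Female Chow rats (SD, n = 5).

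The means of the diet groups of 1 sex differed by less than their SDs, and the difference between the sexes was -1.27 on the log2 scale (SE 0.34, 95% interval -1.99 to -0.55, adjusted p = 0.0247 from edgeR). On each diet alone it missed the threshold. Males minus females was -1.32 on chow (interval -2.35 to -0.28, adjusted p = 0.267), where 1.72% of all genes passed, and -1.23 on HFHS (interval -2.23 to -0.23, adjusted p = 0.148), where 4.83% passed. By diet Chac1 differed by -0.04 in females (interval -1.06 to 0.97, adjusted p = 0.993) and by 0.04 in males (interval -0.96 to 1.05, adjusted p = 0.993). These intervals are wide enough to hold a change of up to 1.06 on the log2 scale in females and 1.05 in males. The spread between rats was far above counting error. Chac1 had 115 to 2467 counts per rat and a coefficient of variation of 70.5% over all rats, against 5.0% from counting alone.

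The sex difference in Chac1 rested in part on single rats. Without rat 214 of Female Chow, which had the highest level at 59.6 CPM, it was -1.01 with an adjusted p of 0.0533. On chow alone it was -0.79 without rat 214 (adjusted p = 0.509 from edgeR), and on HFHS alone it lay between -1.57 and -1.05 with 1 rat left out. Averaged over diets, it passed with each of the other 22 rats left out in turn, with adjusted p of 0.0123 or more. Without rats 111, 202 and 205 it was -1.35 (adjusted p = 0.0383).

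**Figure D2:**
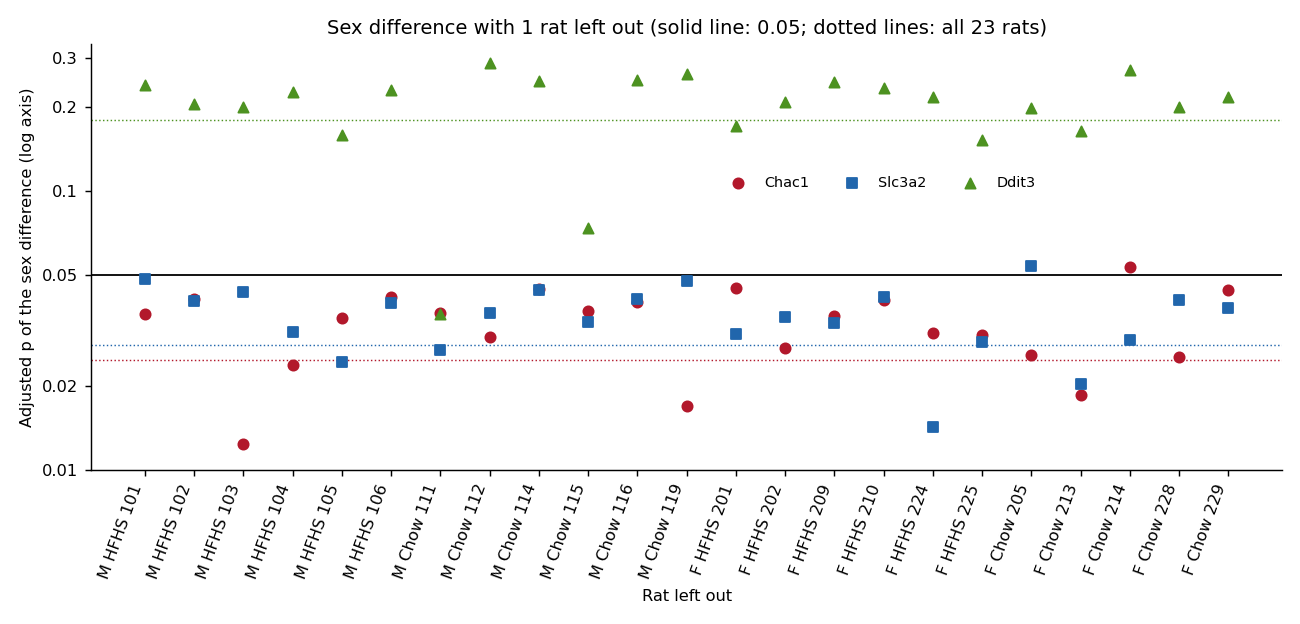
Adjusted p of the difference between males and females (vertical log axis) for Chac1, Slc3a2 and Ddit3 with each rat left out in turn (horizontal axis, ordered by group). Chac1 lies above the solid line at 0.05 only without rat 214 and Slc3a2 only without rat 205, and Ddit3 lies below it only without rat 111.

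Hepatocyte markers and Chac1 were both lower in males. With their mean log2 level as a covariate, the sex difference in Chac1 was -1.08 with an adjusted p of 0.583, in a fit in which 39 genes in all passed by sex, against 1199 without the covariate. The 2 females whose marker sums lay within the male range were rats 202 and 209, at 53.5 and 41.9 CPM. Their Chac1 levels were 16.4 and 26.5 CPM, against a male median of 9.26 CPM and a highest male level of 23.2 CPM. Within each sex, Chac1 was not related to the marker sum past the threshold. On log2 scales r was -0.20 over the 12 males (permutation p = 0.538, rho = -0.38, permutation p = 0.224) and 0.21 over the 11 females (permutation p = 0.524, rho = 0.16, permutation p = 0.635). For Slc3a2 the relation was r = 0.44 in males (permutation p = 0.151, rho = 0.41, permutation p = 0.19) and r = -0.62 in females (permutation p = 0.0402, rho = -0.75, permutation p = 0.0115). Of these 4 relations, adjusted for their number, that of Slc3a2 in females had p = 0.161 for r and p = 0.0462 for rho. Without the 2 rats farthest in the marker sum, r for Chac1 was -0.21 in males and 0.20 in females, and r for Slc3a2 was 0.53 in males and -0.39 in females.

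**Figure D3:**
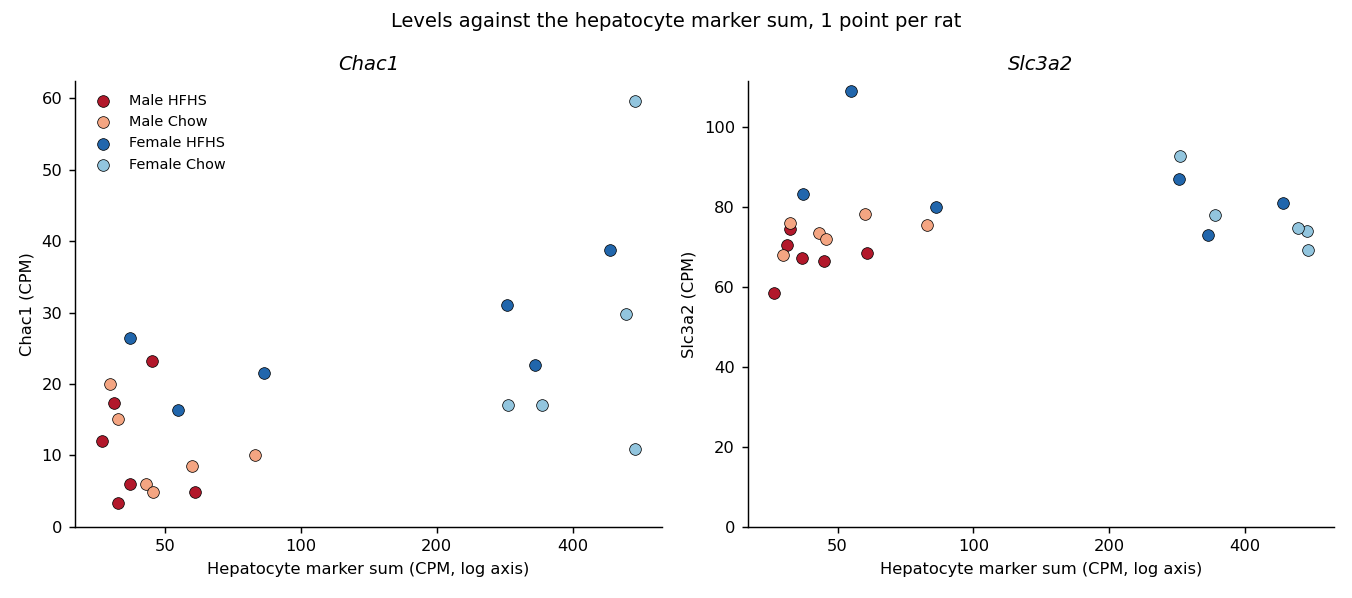
Chac1 (left) and Slc3a2 (right) in CPM against the sum of 20 hepatocyte markers in CPM (horizontal log axis), with 1 point per rat coloured by group. Females 202 and 209, at marker sums of 53.5 and 41.9 CPM, lie among the males on the horizontal axis, with Slc3a2 at 109 and 83.2 CPM, above all males.

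Trib3 (rn6 chromosome 3, 147813473 to 147819571, - strand) encodes a pseudokinase that restrains ATF4 and is itself induced by it. It was at 0.430, 0.563 and 0.817 CPM in Male HFHS, 0.114, 0.385 and 0.948 CPM in Male Chow and 0.0671, 0.697 and 0.815 CPM in Female HFHS rats (lowest, median, highest). Female Chow rats had 0.145, 0.272, 0.278, 0.286 and 0.612 CPM. The median of each HFHS group was above that of the chow group of the same sex, and the groups overlapped. The diet difference was 0.83 on the log2 scale in females (interval -0.14 to 1.79, adjusted p = 0.745 from edgeR) and 0.34 in males (interval -0.54 to 1.23, adjusted p = 0.890). With the diets of the titles it was 0.68 in females, and without the 3 females of conflicting labels 0.97 (adjusted p = 0.537 and 0.512). Averaged over the sexes it was 0.58 (interval -0.07 to 1.24, adjusted p = 0.560). By sex the difference was 0.26 (interval -0.40 to 0.91, adjusted p = 0.672). Trib3 had 3 to 36 counts per rat, so that counting alone gives a coefficient of variation of 29.1%, against 49.5% observed.

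Sesn2 (rn6 chromosome 5, 150684133 to 150704117, - strand) encodes sestrin 2, a stress protein that binds leucine and restrains the growth kinase mTORC1. It was at 8.21, 10.5 and 12.2 CPM in Male HFHS, 8.58, 9.39 and 11.7 CPM in Male Chow and 8.54, 9.97 and 10.7 CPM in Female HFHS rats (lowest, median, highest), and at 7.96, 8.14, 8.31, 8.98 and 9.95 CPM in Female Chow rats. The groups overlapped, with the lowest mean in Female Chow rats (8.67 ± 0.814 CPM, SD, n = 5). Averaged over the sexes, HFHS minus chow was 0.14 on the log2 scale (interval 0.00 to 0.28, adjusted p = 0.509 from edgeR), in a comparison in which 0.0524% of all genes and 0 of these 10 passed. DESeq2 and limma-voom called 0 of the 10 as well, and 1 of them, Sesn2, had an unadjusted p under 0.05. With the diets of the titles Sesn2 differed by 0.091 (adjusted p = 0.785 from edgeR) and its unadjusted p was no longer under 0.05. With the column codes it was 0.18 in females (interval -0.02 to 0.39, adjusted p = 0.741) and 0.10 in males (interval -0.09 to 0.29, adjusted p = 0.828), and with the titles 0.08 in females (adjusted p = 0.769). By sex Sesn2 differed by 0.12 (interval -0.02 to 0.26, adjusted p = 0.294).

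**Figure D4:**
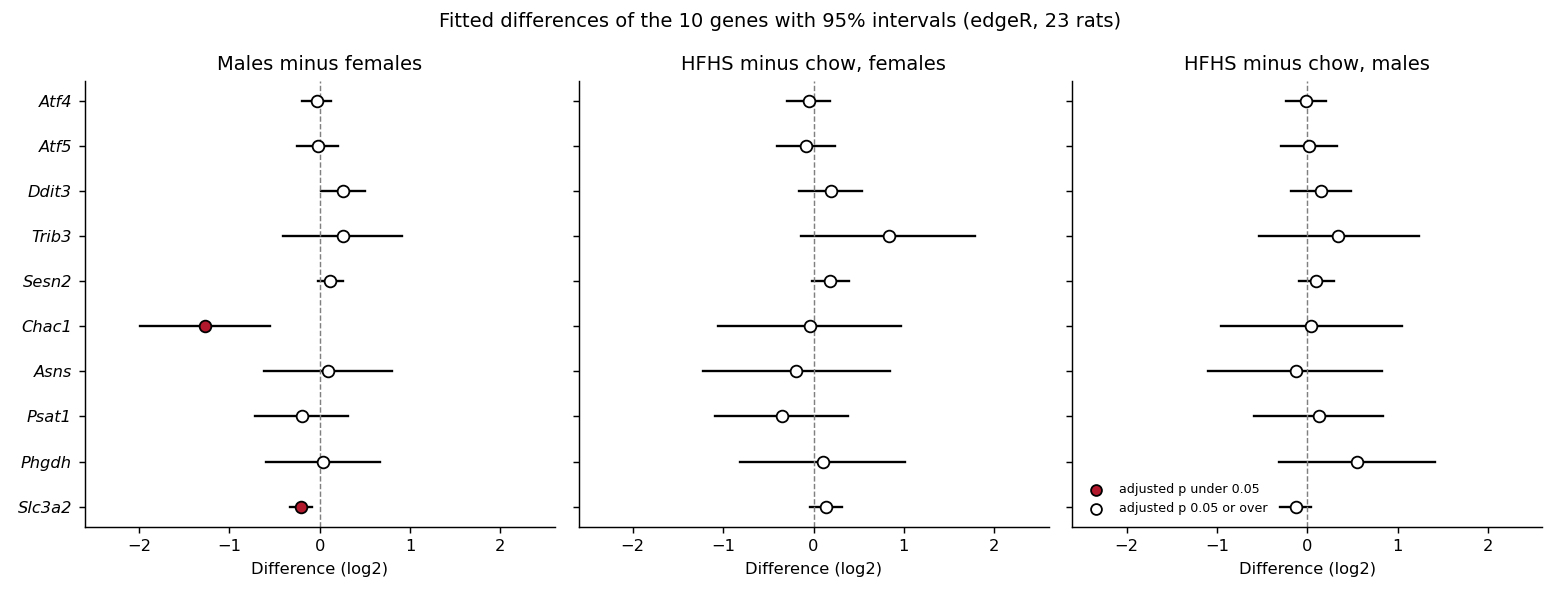
Fitted log2 differences (horizontal axis) of the 10 genes with 95% intervals, for males minus females and for HFHS minus chow in females and in males. Filled points passed the adjusted p of 0.05, which held for Chac1 (-1.27) and Slc3a2 (-0.21) by sex and for none by diet.

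Slc3a2 (rn6 chromosome 1, 224906554 to 224921092, - strand) encodes the heavy chain that carries several amino acid exchangers, the leucine transporter Slc7a5 among them, to the cell surface. It was at 58.4, 67.9 and 74.4 CPM in Male HFHS and 68.1, 74.5 and 78.3 CPM in Male Chow rats (lowest, median, highest). Female HFHS rats had 73.0, 82.0 and 109 CPM, and Female Chow rats 69.2, 74.0, 74.7, 78.1 and 92.7 CPM. The means were 67.6 ± 5.33 CPM in Male HFHS, 73.9 ± 3.59 CPM in Male Chow, 85.5 ± 12.4 CPM in Female HFHS (SD, n = 6 each) and 77.7 ± 8.94 CPM in Female Chow rats (SD, n = 5). Ordered by level, Male HFHS was lowest, then Male Chow, Female Chow and Female HFHS. Of these neighbours, Male HFHS and Male Chow differed by more than either SD, and the others by less than the larger SD of the pair. Of the 12 males, 5 were below the lowest female, and 6 of the 11 females were above the highest male.

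The difference by sex in Slc3a2 was -0.21 on the log2 scale (SE 0.06, interval -0.33 to -0.08, adjusted p = 0.0280 from edgeR). It was found on HFHS, at -0.34 (SE 0.08, interval -0.51 to -0.17, adjusted p = 0.0167), where 2.84% of all genes were lower in males. On chow it was -0.07 (interval -0.25 to 0.10, adjusted p = 0.796). On HFHS 5 of the 6 males lay below the lowest Female HFHS rat. Slc3a2 was the 1 gene of the 10 called on HFHS, where 4.83% of all genes passed. On chow edgeR called 0 of the 10, where 1.72% of all genes passed, and DESeq2 and limma-voom called 0. At an unadjusted p under 0.05 there was 1 on chow (Chac1), against 11.9% of all genes. Whether the sex difference depended on diet was tested as the interaction, which was -0.27 (interval -0.51 to -0.02, unadjusted p under 0.05) and missed the threshold after adjustment (adjusted p = 0.983), as did every gene tested (0% called). The interaction was called for 0 of the 10 genes by DESeq2 and limma-voom too. By diet Slc3a2 differed by 0.14 in females (interval -0.04 to 0.31, adjusted p = 0.764) and by -0.13 in males (interval -0.30 to 0.04, adjusted p = 0.727).

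The diet difference of Slc3a2 in females depended on the labels of 3 rats, on rat 202 and on the hepatocyte covariate. With the diets of the titles it was 0.27 (adjusted p = 0.167 from edgeR), and without those rats 0.28 (adjusted p = 0.378), with an unadjusted p under 0.05 in both. Without rat 202 it was 0.059 (adjusted p = 0.944) and with the hepatocyte covariate 0.02 (adjusted p = 0.993). On HFHS the sex difference passed under each label choice, at -0.42 with the titles and -0.40 without the 3 rats (adjusted p = 0.000854 and 0.00518). It also passed with each of the 23 rats left out in turn and with the hepatocyte covariate (-0.46, adjusted p = 0.0206). Rat 202 was at 109 CPM and rat 205 at 92.7 CPM, above all other rats. Averaged over diets, the sex difference was -0.17 without rat 205 (adjusted p = 0.0538) and -0.13 without rats 111, 202 and 205 (adjusted p = 0.0523). With the hepatocyte covariate it was -0.37 (adjusted p = 0.103). The unadjusted p from edgeR was 0.000822 in that fit, in which 39 genes in all passed by sex, and 0.00179 without the covariate.

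The remaining amino acid genes were at few counts. Asns (rn6 chromosome 4, 33743364 to 33761163, - strand), which encodes asparagine synthetase, had 1 to 27 counts per rat. It lay between 0.0589 and 0.576 CPM in males and between 0.0497 and 0.743 CPM in females, and its log2 difference by sex was 0.09 (interval -0.62 to 0.80, adjusted p = 0.905 from edgeR). Psat1 (rn6 chromosome 1, 233124092 to 233145941, - strand) and Phgdh (rn6 chromosome 2, 200484246 to 200513564, - strand) encode enzymes of serine synthesis. Psat1 had 7 to 48 counts per rat, lay between 0.265 and 1.19 CPM in males and between 0.181 and 1.37 CPM in females, and differed by -0.20 (interval -0.72 to 0.31, adjusted p = 0.671). Phgdh had 6 to 92 counts, lay between 0.177 and 1.72 CPM in males and between 0.306 and 1.19 CPM in females, and differed by 0.04 (interval -0.59 to 0.67, adjusted p = 0.958). Counting alone gives a coefficient of variation of 38.7% for Asns, 21.9% for Psat1 and 23.7% for Phgdh, against 53.1%, 38.5% and 53.4% observed. In the values for counting, rats with few counts weigh most.

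Phgdh was highest in rats 102 and 101 of Male HFHS, at 1.72 and 1.31 CPM, and HFHS minus chow in males was 0.55 (interval -0.31 to 1.41, adjusted p = 0.787 from edgeR). Without rat 102 it was 0.20. The same rats had the highest sums of the 6 Schwann cell and nerve markers, 598 and 576 CPM. The sums ranged from 57.4 to 598 CPM in Male HFHS, 58.1 to 325 CPM in Male Chow, 68.8 to 310 CPM in Female HFHS and 62.1 to 144 CPM in Female Chow rats. Of these markers 0 of 6 passed by sex, and their part in the Phgdh levels was not tested. Genes whose log2 levels were like those of Phgdh over the 23 rats included Orc4 (r = 0.64) and Cldn19 (r = 0.63), a tight junction gene of Schwann cells.

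Levels of the 10 genes were compared with each other from rat to rat. Among the 45 pairs, 0 passed after adjustment for their number, with a smallest adjusted permutation p of 0.193. Atf4 and Slc3a2 had r = 0.53 (permutation p = 0.0135), but rho = 0.00 (permutation p = 0.987). Without the 2 rats farthest in Atf4, r over the other rats of both sexes was -0.19. With all rats, r was 0.67 within females, 0.48 within males and 0.73 for deviations from the group means. These 3 values were not computed without the 2 rats. Psat1 and Phgdh had r = 0.52 and rho = 0.51 (permutation p = 0.0115 and 0.0134), and r = 0.30 without 2 rats. Asns and Psat1 had r = 0.50 and rho = 0.30 (permutation p = 0.0162 and 0.161). Atf4 and Atf5 had r = 0.48 and rho = 0.46 (permutation p = 0.0171 and 0.0287), with 0.70 within females and 0.12 within males. Atf4 and its target Chac1 had r = -0.15 and rho = -0.32 (permutation p = 0.495 and 0.133).

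**Figure D5:**
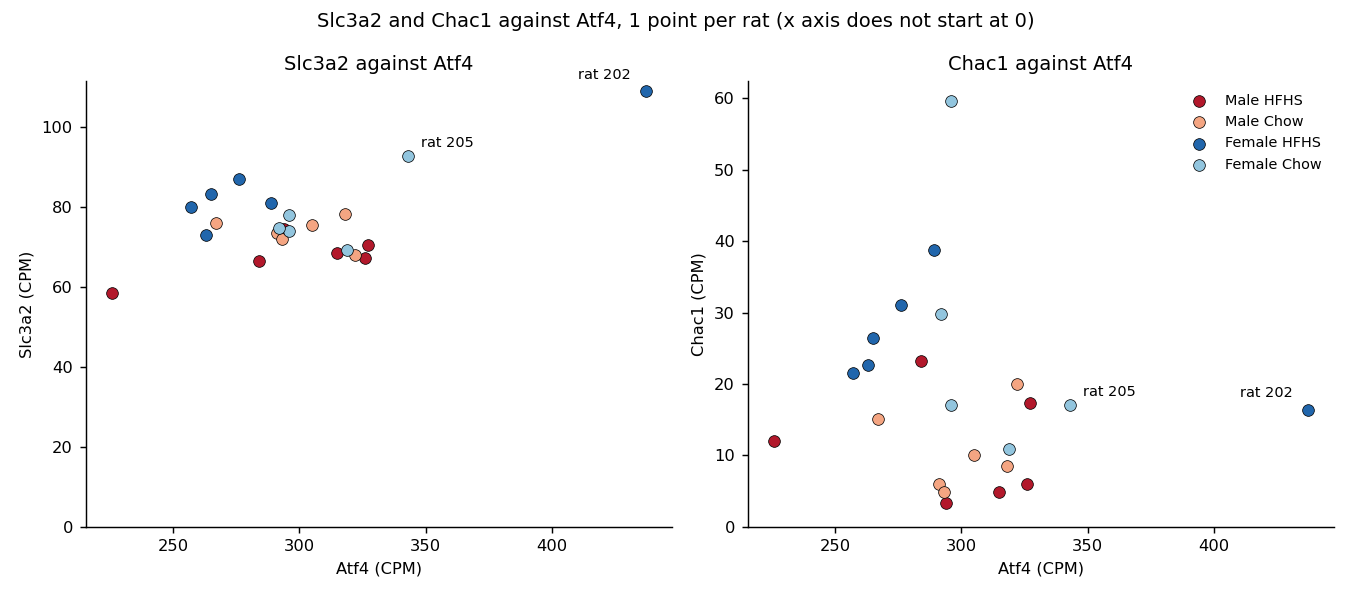
Slc3a2 (left) and Chac1 (right) in CPM against Atf4 in CPM, with 1 point per rat coloured by group. Rat 202, at 437 CPM of Atf4, stands apart from the others, with Slc3a2 at 109 CPM and Chac1 at 16.4 CPM.

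The genes most like each member were named by Pearson r of log2 CPM over all 23 rats, as a description. For Chac1 they were Gnptg (r = 0.76), Cish (0.72), an inhibitor of cytokine signaling, and F2 (0.69), the prothrombin gene of liver. F2 had medians of 0.528 CPM in Male HFHS, 0.618 CPM in Male Chow, 2.50 CPM in Female HFHS and 4.14 CPM in Female Chow rats. For Slc3a2 they were the clock repressor gene Cry1 (0.87), Dtwd2 (0.87) and the nuclear receptor cofactor gene Nrip1 (0.86). Cry1 had medians of 17.9 CPM in Male HFHS, 18.9 CPM in Male Chow, 22.4 CPM in Female HFHS and 22.2 CPM in Female Chow rats. Its highest level, 35.9 CPM, was in the Female HFHS group. For Atf4 they were the proteasome activator gene Psme4 (0.87), the ubiquitin ligase gene Arih1 (0.86) and Tp53bp2 (0.80). Atf5 was most like Pdf (0.80), Ugp2 (0.71) and Smurf2 (0.67), and Ddit3 most like Sept2 (0.84), Csrnp2 (0.83) and Sdf4 (0.80). Trib3 was most like Cdc42bpb (0.71), Six5 (0.71) and Nynrin (0.70), Sesn2 most like Rasa3 (0.67), Rnf219 (0.67) and Myh9 (0.66). Asns was most like Mdk (0.68), Dram1 (0.67) and Stau1 (0.63), and genes like Psat1 included Itgb3bp (0.74) and Atp1b3 (0.72).

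Around the 10 genes, 8 lists of the integrated stress response and of related stress responses held 128 tested genes. Of these, edgeR called 7 by sex, where 8.97% of all genes passed. At an unadjusted p under 0.05 there were 35, against 23.5% of all genes. DESeq2 called 15 of the 128 and limma-voom 11. Over all genes DESeq2 called 1611 and limma-voom 1357 by sex, against 1199 by edgeR. Counts of these tools in the lists below are to be read against those totals. By diet edgeR, DESeq2 and limma-voom called 0 of the 128 in females and 0 in males. At an unadjusted p under 0.05 there were 8 and 6, against 6.96% and 7.91% of all genes. For the interaction these counts were 0 by edgeR, DESeq2 and limma-voom, and 6 at an unadjusted p under 0.05, against 4.88% of all genes.

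The first list held the kinases that phosphorylate eIF2, the eIF2 and eIF2B subunits, the phosphatase genes, Impact, Gcn1l1 and Oma1. Of its 17 tested genes, 1 was called by sex, against 8.97% of all genes, with 2 called by DESeq2 and 3 by limma-voom. Eif2s3, a subunit of eIF2, was lower in males, with medians of 53.6 CPM in Male HFHS, 58.6 CPM in Male Chow, 92.3 CPM in Female HFHS and 94.5 CPM in Female Chow rats (log2 -0.75, SE 0.04, adjusted p = 4.49e-13 from edgeR). All males were below all females. Its gene lies on chromosome X and has a close copy on chromosome Y, so that the division of reads between the copies is uncertain. The 17 genes had a median log2 of -0.07 by sex, against 0.00 over all genes.

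Of 15 ATF4 partners and related factors, 2 were lower in males and 0 higher, where 5.17% of all genes were lower. DESeq2 called 3 of the 15 and limma-voom 1. Cebpb, whose protein pairs with ATF4, had medians of 21.8 CPM in Male HFHS, 27.7 CPM in Male Chow, 43.0 CPM in Female HFHS and 36.0 CPM in Female Chow rats (log2 -0.57, SE 0.18, adjusted p = 0.0482 from edgeR). Cebpd, of the same family, had medians of 10.2 CPM in Male HFHS, 13.8 CPM in Male Chow, 17.7 CPM in Female HFHS and 14.8 CPM in Female Chow rats (log2 -0.80, SE 0.22, adjusted p = 0.0228).

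Among 25 other reported targets of ATF4 or CHOP, 3 were lower in males and 1 higher, where 8.97% of all genes passed by sex and 5.17% were lower in males. DESeq2 called 7 of the 25 and limma-voom 6. The list was chosen with earlier results of these data known. The cell cycle inhibitor gene Cdkn1a, also a target of p53, had medians of 15.1 CPM in Male HFHS, 25.1 CPM in Male Chow, 50.5 CPM in Female HFHS and 45.4 CPM in Female Chow rats (log2 -1.47, SE 0.27, adjusted p = 0.00124 from edgeR). Gadd45a, a stress gene shared with the p53 pathway, had medians of 8.27 CPM in Male HFHS, 8.37 CPM in Male Chow, 12 CPM in Female HFHS and 13.5 CPM in Female Chow rats (log2 -0.84, SE 0.15, adjusted p = 0.00101). The secreted stanniocalcin gene Stc2 had medians of 4.61 CPM in Male HFHS, 3.50 CPM in Male Chow, 7.06 CPM in Female HFHS and 5.43 CPM in Female Chow rats (log2 -0.53, SE 0.16, adjusted p = 0.0370). Vldlr, a lipoprotein receptor gene, was higher in males, with medians of 82.4 CPM in Male HFHS, 84.8 CPM in Male Chow, 72.2 CPM in Female HFHS and 71.5 CPM in Female Chow rats (log2 0.21, SE 0.05, adjusted p = 0.0104). The circulating stress hormone genes of the pathway were low. Fgf21 had 0 to 13 counts per rat and was not tested, and Gdf15 had medians of 0.248 CPM in Male HFHS, 0.570 CPM in Male Chow, 0.274 CPM in Female HFHS and 0.217 CPM in Female Chow rats (log2 by sex 0.79, SE 0.31, adjusted p = 0.112). These hormone genes and Slc7a5 are named for their roles, after their values were seen.

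In the other lists 0 genes passed by sex, where 8.97% of all genes passed and 23.5% had an unadjusted p under 0.05. They were 10 amino acid transporters (2 at an unadjusted p under 0.05), 13 genes of serine, glycine, one-carbon and proline synthesis (1), 19 cytosolic aminoacyl-tRNA synthetases (3), 19 genes of the ATF6 and XBP1 arm of the unfolded protein response (5) and 10 of the mitochondrial unfolded protein response (2). DESeq2 called 2 of the tRNA synthetases and 1 of the mitochondrial list, and limma-voom 1 of the mitochondrial list. Their median log2 by sex was -0.05 for the transporters, the synthesis genes and the tRNA synthetases, -0.08 for the ATF6 and XBP1 arm and 0.04 for the mitochondrial list, against 0.00 over all genes. Slc7a5, the partner of Slc3a2, had medians of 1.13 CPM in Male HFHS, 1.01 CPM in Male Chow, 1.54 CPM in Female HFHS and 1.07 CPM in Female Chow rats (log2 by sex -0.15, SE 0.20, adjusted p = 0.713 from edgeR). The cystine transporter gene Slc7a11 had 0 to 2 counts per rat and was not tested.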

How the data were processed

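Gastrocnemius RNA of 23 rats was sequenced from directional polyA libraries as 150 base paired reads. The authors used fastp for trimming, STAR 2.7.6a for alignment to rn6 and SeqMonk 1.48.1 for counting over the exons of each gene's merged transcripts. The deposited table holds these raw counts per gene and rat, without normalization. The annotation release and strand setting are not given in the sources used here. Of 18919 entries, 16 without a gene name were left out (6.57e-05% to 0.000294% of a rat's counts).

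Rats were grouped by column code. Counts were filtered (filterByExpr), scaled by TMM and tested in edgeR 4.0.16 (R 4.3.3) by robust quasi-likelihood tests in 1 model with 4 group means. CPM use TMM scaling, and log2 CPM a prior count of 2. The 10 genes and the lists were chosen with earlier results of these data known. All 10 genes are named, with up to 4 called genes per list and the 3 genes most like each member (mean of at least 1 CPM), of which 2 are not reported here. Correlation p used 100000 permutations. Alternatives were RLE factors, 2 other filters, DESeq2 1.42.0, limma-voom (limma 3.58.1), title diets, leaving out the 3 conflicting females or each rat, a hepatocyte covariate, a replicate block, each sex alone and an unadjusted p. Leaving out the 3 most deviating libraries was added after seeing the data. The procedure was tested on simulated data.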

Additional observations from a re-analysis of the deposited data

Results flagged for a closer look

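In 2 of the 40 group and gene combinations, 1 rat lay far from the others of its group. Chance gives about 1 in 20 for independent combinations. These combinations share the same rats, so the number cannot decide whether the gaps arose by chance. Atf4 in Female HFHS rats had its highest level in rat 202, at 437 CPM, and the gap to the next rat was 0.822 of the group's range. Psat1 in Male Chow rats had its lowest level in rat 112, at 0.296 CPM, with a gap of 0.650 of the range. Rat 202 was also among the 3 libraries farthest from their groups over all genes.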

How the results depend on the processing

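The 3 called differences (Chac1 and Slc3a2 by sex, Slc3a2 on HFHS) kept their sign in all alternatives, and Slc3a2 on HFHS passed in all of them. By sex, the number of the 10 genes called went from 2 to 0 with the hepatocyte covariate (Chac1 -1.08, Slc3a2 -0.37). The Slc3a2 difference was larger in that fit than in the main fit (-0.21). The number called went to 1 with the title number as a replicate block (Slc3a2 -0.20, adjusted p = 0.0536 from edgeR). The number was also 1 without the 3 most deviating libraries (Slc3a2 -0.13). With 1 rat left out it was 1 to 3, with Chac1 at -1.44 to -1.01, Slc3a2 at -0.22 to -0.16 and Ddit3 at 0.21 to 0.32. The cause was not tested. Rats with the same title number did not deviate together (median r -0.0327 over 32 pairs, from -0.351 to 0.369), so the numbers were not taken as pairs. By an unadjusted p, the interaction had 1 of the 10 genes, against 4.88% of all genes, and sex on chow 1, against 11.9%. Sex on HFHS had 2, against 19.9%, and diet averaged over the sexes 1, against 9.77%.

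Over all 10 genes and 7 comparisons, 106 of 1610 values with 1 rat left out and 73 of 692 others changed sign, 0 of them past the threshold. Among those described, limma-voom turned Atf4 (0.027), Atf5 (0.0050) and Phgdh (-0.083) by sex, Chac1 by diet (0.0051 in females, -0.026 in males) and Atf4 by diet in males (0.0009). Without the most deviating libraries, Atf4 (0.057) and Atf5 (0.060) by sex and Atf4 (0.0047) and Chac1 (-0.011) by diet in males turned. Without the conflicting females, Asns (-0.022) and Psat1 (0.037) by sex and Atf4 by diet in females (0.072, and 0.17 with the title diets) did. The covariate turned Asns (-0.69) and Phgdh (-0.64) by sex and Chac1 by diet in females (0.069), and the block Phgdh by sex (-0.017) and Chac1 by diet in females (0.13). With 1 rat left out, the ranges across 0 were -0.013 to 0.32 for Asns, -0.050 to 0.046 for Atf4, -0.067 to 0.037 for Atf5 and -0.14 to 0.15 for Phgdh by sex. They were -0.24 to 0.48 for Chac1 by diet in females and -0.30 to 0.32 for Chac1 and -0.051 to 0.047 for Atf4 by diet in males. Mean counts were lowest for Trib3, Asns, Psat1 and Phgdh, at 12.4 to 27.5 per rat, where counting error is a part of the spread between rats.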
